A study of Mus musculus with 5 samples.

Results

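Genes of the glutathione, thioredoxin and NRF2 antioxidant system were followed through 5 clones of mouse cardiac progenitor cells. The genes were taken from a list of 40 symbols, and every array probe set annotated to a symbol of the list alone was used. Of the 40, 36 had such a probe set, out of 18193 named genes on the array, and 35 could be followed between clones. The 5 clones, named 1D, 11B, 20B, 30 and 42, came from the left ventricles of adult mice aged 5 to 6 months, of a strain the labels spell C67BL/6. Cells were selected with an antibody to Sca-1, cloned with rings and subcloned by dilution, and are labelled c-kit positive. The labels name no treatment or genotype, set the clones apart by clone name only, and do not say which animal each came from. Total RNA of each clone was put on 1 Affymetrix expression array, so each group is a single clone measured a single time. No difference could be tested, no SD between replicates exists, and every difference given here has no replicate check.

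NRF2, encoded by Nfe2l2, is a transcription factor held at a low level by KEAP1, which presents it to a CUL3 ubiquitin ligase for destruction. Oxidants and electrophiles modify KEAP1, NRF2 then accumulates, pairs with a small MAF protein and binds the antioxidant response element in the control regions of its targets. Those targets make glutathione, reduce quinones, supply NADPH and restore oxidized thioredoxin and peroxiredoxins. In the heart this system is known for buffering the peroxide made by mitochondria and during reperfusion.

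The deposited values were ratios, in which the divisor of a probe set was the median of its 5 arrays or, for low medians, a floor. A ratio of 1 therefore marks the middle clone, or the floor where that was the divisor, and gives no amount of transcript, and levels of different genes cannot be set side by side. Values were turned to log2, and the measured probe sets of a gene were averaged. Probe sets were taken as measured where the median equalled 1, or a clone exceeded 1, and the clones spanned over 0.05 log2 units. The members had 74 probe sets, of which 53 were measured and 21 lay at the floor or were flat. Of the 35 measured members 21 rested on 1 measured probe set and 14 on several. The only error the design offers is the disagreement between probe sets of the same gene: over 6681 pairs it corresponded to an SD of 0.34 log2 units for a single probe set, and over the 22 pairs within the members to 0.20. This error covers neither the culture nor the RNA preparation. A difference of at least 1 log2 unit, which is 2-fold, was called.

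The labels were checked against marker genes first. Kit, the c-kit gene, had a measured probe set with clone 20B at 0.24 log2 units and the other clones between -0.01 and 0.00. The ratios of clones 1D, 11B and 30 recurred unchanged on 1067 other probe sets. Their closeness therefore does not measure Kit, and no detection of Kit in them follows. Pou5f1 was at the floor or flat, and Ly6a had no probe set of its own in the annotation used here. None of 5 endothelial markers was measured, as each was at the floor or flat. Array quality also differed. For the Actb control the deposited ratio at the 5' end was divided by that at the 3' end. The result compares clones and is no absolute 5' to 3' ratio. It was lowest in clone 11B (0.597, beside 1 in clone 20B), followed by clone 30 at 0.743. The 18S controls had ratios of 0.411 to 0.555 in clone 11B and of 1.013 to 1.569 in clone 1D. By contrast, the 18 hybridization controls had an SD of 0.08 log2 units. The poly-A controls had a median log2 ratio of 0.33 in clone 30 and -0.40 in clone 42.

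The antioxidant response element, whose core was searched as TGACNNNGC on both strands, occurred in 9 of 40 promoter windows of the members (22.5%), against 4071 of 32851 windows (12.4%) of all genes in the table. Each window ran from 250 bases before to 50 bases after an annotated start in RefSeq, build GRCm38.p6; 33 of the 40 symbols had a window, and Hmox1, Gsr, Gclc, Sod3, Gstt2, Gsta4 and Prdx6 had none there. The 9 matches are shown so that the letters can be compared between genes that differed between clones and genes that did not. Each is written 5' to 3' on the strand that carries the motif, with the motif in capitals.
Nfe2l2, chr2:75704885-75704913, minus strand: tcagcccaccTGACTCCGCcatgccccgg
Srxn1, chr2:152105542-152105570, minus strand: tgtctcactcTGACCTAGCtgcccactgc
Gstm5, chr3:107895802-107895830, plus strand: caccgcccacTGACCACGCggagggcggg
Gclm, chr3:122245413-122245441, minus strand: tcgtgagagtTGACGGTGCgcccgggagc
Prdx1, chr4:116685456-116685484, minus strand: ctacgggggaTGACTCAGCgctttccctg
Mgst1, chr6:138140461-138140489, minus strand: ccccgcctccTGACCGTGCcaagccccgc
Txnrd1, chr10:82859104-82859132, minus strand: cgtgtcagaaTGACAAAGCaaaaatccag
Sod1, chr16:90220696-90220724, minus strand: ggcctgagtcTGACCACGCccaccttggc
G6pdx, chrX:74428919-74428947, plus strand: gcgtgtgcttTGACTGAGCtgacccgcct
The motif of Prdx1, TGACTCAGC, is shown although Prdx1 gave no value below, and Gclm and Mgst1 are the genes of this set with a range of at least 1 log2 unit. A match is a description of letters and shows no binding.

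The promoters of the pair of members that ranged widest are shown whole, because both genes were lowest in the same clone. Each covers the 250 bases before the start, 5' to 3' on the strand of the gene, with motif matches in capitals; in Gclm the match lies on the opposite strand and reads GCNNNGTCA here.
Gclm, chr3:122245307-122245556, plus strand: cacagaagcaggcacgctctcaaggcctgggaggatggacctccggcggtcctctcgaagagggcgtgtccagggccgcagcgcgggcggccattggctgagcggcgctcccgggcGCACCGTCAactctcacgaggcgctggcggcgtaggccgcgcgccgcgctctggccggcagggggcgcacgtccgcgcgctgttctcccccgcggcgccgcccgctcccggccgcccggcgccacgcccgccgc
Nqo1, chr8:107403206-107403455, minus strand: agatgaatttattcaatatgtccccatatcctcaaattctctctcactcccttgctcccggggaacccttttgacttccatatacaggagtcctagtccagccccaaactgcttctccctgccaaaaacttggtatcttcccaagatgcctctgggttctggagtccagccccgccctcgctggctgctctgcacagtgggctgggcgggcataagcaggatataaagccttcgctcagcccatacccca
The Nqo1 window held no match to these letters, from which nothing follows about sites elsewhere.

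With all 5 clones a wide range was more frequent among the members than on the array as a whole, by a margin that rested in large part on clone 1D, while the median ranges were close. The members were chosen with earlier results of these data known, and the part of that choice in the margin was not tested. Among 35 measured members 9 (25.7%) reached a range of 1 log2 unit, against 13.0% of the 9435 measured genes. Gclm and Nqo1, 2 of the 9, ranged over 2 log2 units or more. The median range was 0.46 log2 units for the members and 0.41 for all measured genes. The 9 were Gclm, Nqo1, Gpx1, Sod3, Hmox1, Gpx8, Gpx4, Mgst1 and Mgst3, from 2.61 down to 1.02. Just below the threshold lay Gsr at 0.84 and Gstm2 at 0.73. Without clone 1D the count was 5 of 35 (14.3%), against 10.6% of all genes. That clone set the extremes of Hmox1 and Gpx8 (range 0.22 and 0.61 without it) and carried the lowest values of Gpx4 and Mgst3 (0.81 and 0.80).

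**Figure D1:**
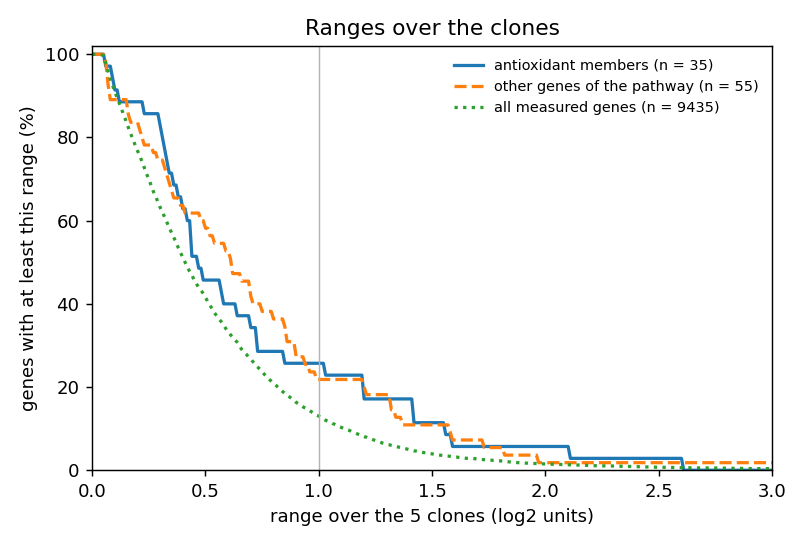
Share of genes (%, vertical axis) whose range over the 5 clones reached at least the value on the horizontal axis (log2 units), for 35 antioxidant members, 55 other genes of the pathway and 9435 measured genes. At the grey line at 1 log2 unit the members stand at 25.7%, the other pathway genes at 21.8% and all genes at 13.0%. The members also lie above all genes at 0.3 (82.9% against 63.2%) and at 0.41 (62.9% against 50.0%). At 0.5 the curves run closer together (45.7% against 41.5%). The medians of members and all genes are 0.46 and 0.41.

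The extremes were spread over the clones and no clone was low or high throughout. Clone 42 was the lowest clone for 11 of the 35 members and the highest for 1, Sod2; over all measured genes it was lowest for 22.2% and highest for 22.5%. Clones 20B and 30 were each highest for 10 members, and over all measured genes for 16.7% and 22.7%. The median deviation of the members from the median of the other 4 clones was -0.08 in clone 42, 0.05 in clone 30, 0.01 in clone 20B, 0.00 in clone 1D and -0.01 in clone 11B, against -0.01 to 0.00 over all measured genes. Deviations of at least 1 log2 unit were few. In clone 42, 3 members lay that far below the median of the others, where 0.986% of all genes did, and none above, where 0.890% did. In clone 30, 2 lay below (1.69% of all genes) and none above (1.25%). In clone 1D, 1 lay below (0.318%) and none above (0.911%), and in clone 20B 1 lay above (0.519%) and none below (0.180%). Clone 11B had none in either direction, where all genes gave 0.678% above and 0.806% below.

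**Figure D2:**
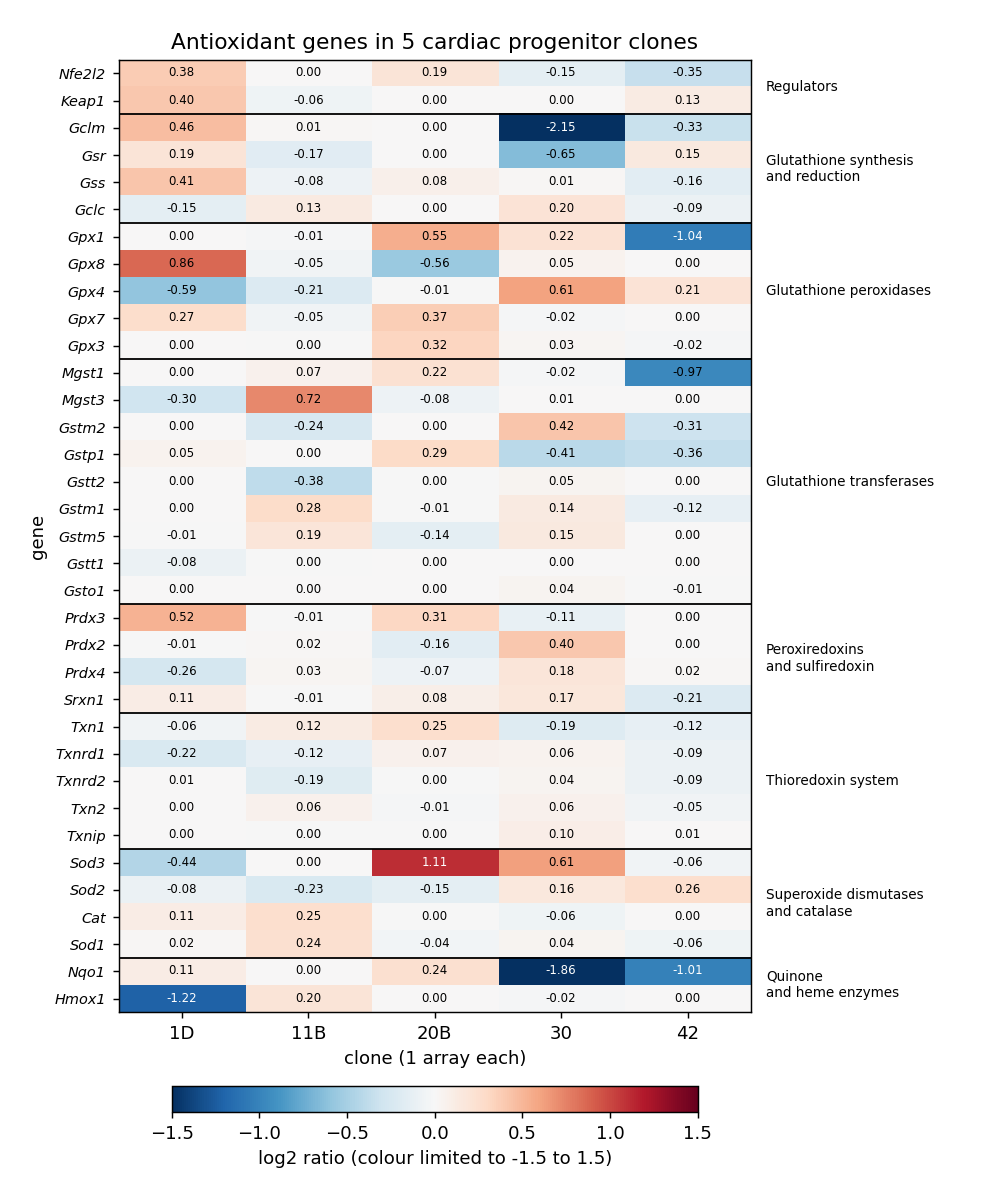
Log2 ratios of the 35 measured members (rows, grouped by role and ordered by range within a role) in the 5 clones (columns, 1 array each), with red for averaged log2 ratios above 0 and blue for those below 0. Deep blue marks Gclm (-2.15) and Nqo1 (-1.86) in clone 30, Hmox1 in clone 1D (-1.22) and Gpx1 in clone 42 (-1.04), and the thioredoxin genes form a pale block.

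The regulators varied by less than 2-fold. The probe set of Nfe2l2 had ratios of 1.301 in clone 1D, 1.000 in clone 11B, 1.140 in clone 20B, 0.902 in clone 30 and 0.786 in clone 42. Clone 1D was thus highest and clone 42 lowest, over a range of 0.73 log2 units; a second Nfe2l2 probe set lay flat just under the floor, at 0.970 to 0.980. Keap1, the repressor of NRF2, was also highest in clone 1D, with a ratio of 1.641 on probe set 1450747_at against 1.214 in clone 42, 1.000 in clone 20B, 0.992 in clone 30 and 0.921 in clone 11B. Its other probe set, 1450746_at, showed 1.059 in clone 1D and 0.982 to 1.009 elsewhere, so the probe sets differed in size and the averaged range was 0.46.

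Nqo1 and Hmox1, which are classical NRF2 targets, differed in which clone was low. The ratios of Nqo1, the quinone reductase, were 0.275 for clone 30 and 0.497 for clone 42, against 1.000 in clone 11B, 1.082 in clone 1D and 1.182 in clone 20B. Clones 30 and 42 were both clear of the other clones. In RNA of whole cultures, fewer cells with the transcript and less of it per cell cannot be told apart. Relative to the median of the others Nqo1 was 0.264-fold in clone 30, a deviation of -1.92 log2 units, and 0.478-fold in clone 42, a deviation of -1.07. Its range of 2.10 exceeded that of 98.7% of the measured genes, and both deviations stayed below -1 in 13 of 13 alternative settings that gave them a value. Nqo1 has 1 probe set, so the settings that only choose or average probe sets could not move it. Under rescaling or with a clone left out, its deviation lay between -1.98 and -1.83 in clone 30. In clone 42 it lay between -1.12 and -1.01.

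Hmox1, the heme oxygenase that degrades heme, was low in clone 1D instead, at a ratio of 0.430, against 1.148 in clone 11B, 1.000 in clone 20B, 0.986 in clone 30 and 1.001 in clone 42. The ratios of clones 20B, 30 and 42 recurred unchanged on 355 other probe sets, so these clones share a level and their closeness does not measure Hmox1. The deviation of -1.22 in clone 1D, a 0.430-fold value, is therefore uncertain in size. In clone 1D Nqo1 was not low, at 0.11 log2 units.

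Glutathione synthesis showed the widest difference among the members. Gclm, the modifier subunit of the enzyme that limits glutathione synthesis, had a ratio of 0.226 in clone 30 on probe set 1418627_at, against 0.793 in clone 42, 1.000 in clone 20B, 1.009 in clone 11B and 1.377 in clone 1D. Clone 30 stood alone, at 0.225-fold the median of the others, and its deviation of -2.15 log2 units was larger than the probe set SD of 0.34. The other probe set of Gclm, 1439050_at, was flat at 0.991 to 1.005, with the ratios of clones 1D, 20B and 30 recurring on 5 other probe sets. With both averaged, the deviation in clone 30 was -1.07.

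The catalytic subunit, Gclc, did not share that pattern. On probe set 1424296_at it had a ratio of 1.289 in clone 30, against 1.201 in clone 11B, 1.000 in clone 20B, 0.939 in clone 1D and 0.901 in clone 42, and its averaged range was 0.36. In clone 30, then, the transcripts of the subunits of one enzyme stood at -2.15 (Gclm) and 0.20 (Gclc) log2 units. Gss, the synthetase of the second step, was highest in clone 1D, at 1.513 on 1448273_at and at 1.174 on 1441931_x_at, and its range was 0.57.

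Gsr, the reductase that regenerates glutathione with NADPH, was also lowest in clone 30, but on only 1 of its probe sets. Probe set 1421816_at had a ratio of 0.424 in clone 30, against 0.754 in clone 11B, 1.000 in clone 20B, 1.227 in clone 42 and 1.305 in clone 1D. Probe set 1421817_at had 0.954 in clone 30 and 0.996 to 1.043 in the other clones. The average in clone 30, -0.65 log2 units, carried an SD between probe sets of 0.83, and Gsr was not called. This role group had 4 measured members, and G6pdx, which supplies NADPH to it, had no probe set named in the annotation used here.

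**Figure D3:**
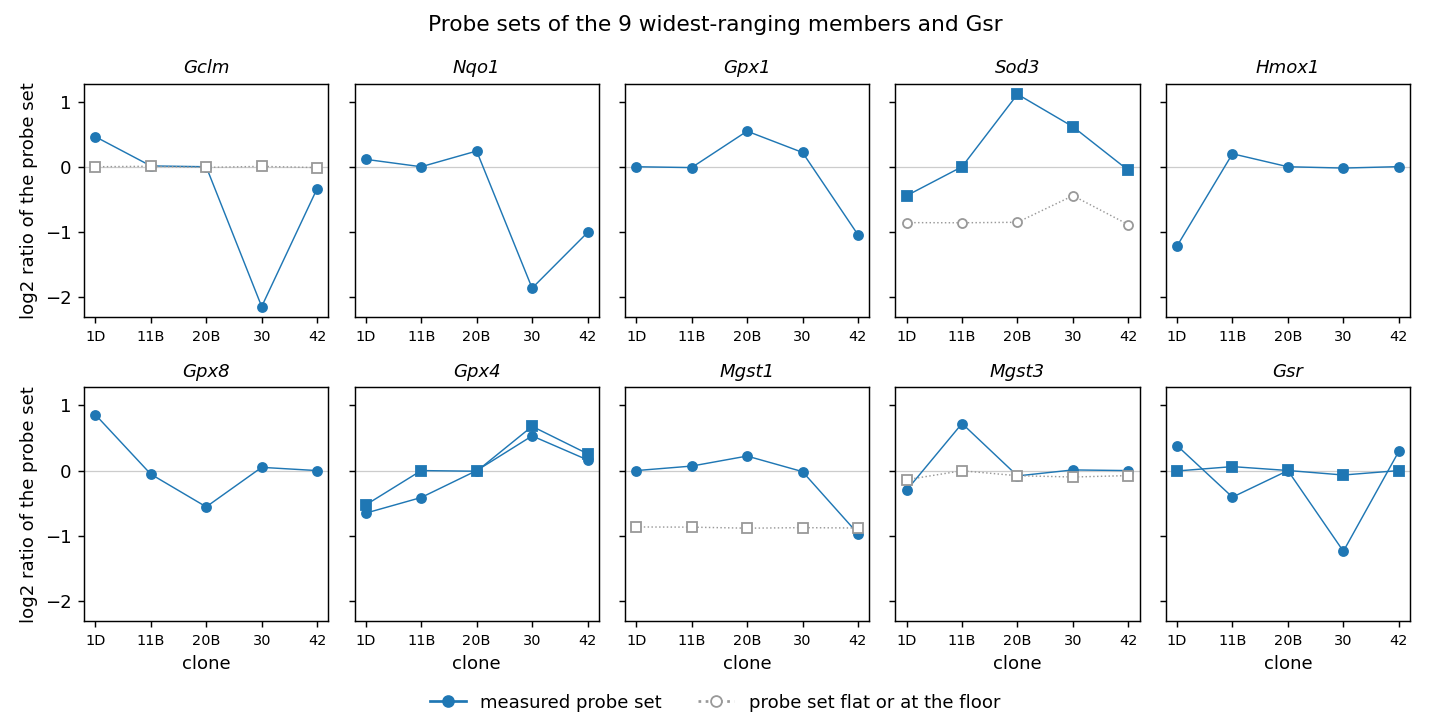
Log2 ratio of each probe set (vertical axis) in the 5 clones (horizontal axis) for the 9 members past 1 log2 unit and for Gsr; filled blue symbols are measured probe sets and open grey symbols those flat or at the floor. Both Gpx4 probe sets are highest in clone 30 and lowest in clone 1D but part in clone 11B (ratios 0.751 and 1.000). Those of Gclm and Gsr part in clone 30.

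The glutathione peroxidases reduce peroxides with glutathione. They were the role group with the largest median range among groups of 3 or more measured genes, 1.20 log2 units over 5 genes. Of the 5, 3 reached 1 log2 unit, where 13.0% of all measured genes did. Each of the 3 had its own pattern. Gpx1, the cytosolic selenoenzyme, had a ratio of 0.485 in clone 42, against 0.991 in clone 11B, 1.000 in clone 1D, 1.164 in clone 30 and 1.460 in clone 20B. Clone 42 was the low clone, at 0.450-fold the median of the others (-1.15 log2 units), and it was called in 13 of 13 alternative settings. Gpx1 has 1 probe set, so the settings that only choose or average probe sets could not change that call. Under rescaling or with a clone left out, the deviation lay between -1.26 and -1.04.

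Gpx4, the selenoenzyme that reduces lipid peroxides in membranes and restrains ferroptosis, was highest in clone 30. Its probe sets had ratios of 1.446 and 1.601 there, against 1.120 and 1.196 in clone 42, 1.000 and 0.993 in clone 20B, 0.751 and 1.000 in clone 11B, and 0.636 and 0.694 in clone 1D. Clones 30 and 1D were the extremes on both probe sets. The averaged range was 1.20, with an SD between probe sets of 0.10 in clone 30, 0.09 in clone 1D and 0.29 in clone 11B. The deviation in clone 30 was 0.71, a 1.64-fold value, and that in clone 1D was -0.69, so neither reached the call against the median of the others.

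Gpx8, an endoplasmic reticulum member of the family, had its highest ratio, 1.814, in clone 1D and its lowest, 0.680, in clone 20B, with 1.035 in clone 30, 1.000 in clone 42 and 0.963 in clone 11B. Its deviations were 0.89 in clone 1D and -0.58 in clone 20B. Gpx7, also of the endoplasmic reticulum, had 1.291 in clone 20B and 1.202 in clone 1D, and 0.968 to 1.000 in the other clones. Gpx3, the secreted plasma enzyme, had 1.246 in clone 20B, and the ratios of clones 1D, 11B and 42 recurred on 24 other probe sets, so these clones could not be told apart.

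Among 9 measured glutathione transferases, which attach glutathione to electrophiles, only the microsomal members Mgst1 and Mgst3 reached a range of 1 log2 unit. Over all measured genes 13.0% did. Mgst1 had a ratio of 0.511 in clone 42 on probe set 1415897_a_at, against 0.989 in clone 30, 1.000 in clone 1D, 1.049 in clone 11B and 1.167 in clone 20B. Clone 42 was at 0.499-fold the median of the others, barely past the threshold, and its deviation was -0.97 log2 units without clone 11B or without clone 20B; the other probe set lay at the floor at 0.542 to 0.549, and with it averaged the deviation was -0.51.

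Mgst3 had a ratio of 1.650 in clone 11B on probe set 1448300_at, against 1.007 in clone 30, 1.000 in clone 42, 0.945 in clone 20B and 0.811 in clone 1D. Its deviation in clone 11B was 0.76, the largest of any member in that clone. Its range of 1.02 became 0.58 with every probe set averaged and 0.31 without clone 11B, both short of the threshold. Its second probe set stayed under the floor, with clone 11B highest there too at 0.998 and the others at 0.908 to 0.948. Clone 11B is also the clone with the lowest Actb 5' to 3' ratio, and the part of RNA quality in this value was not tested.

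The cytosolic transferases varied less. Gstm2 had 1.335 in clone 30 and 0.806 in clone 42, with 1.003 in clone 20B, 1.000 in clone 1D and 0.845 in clone 11B. Gstp1, the pi-class enzyme, shared its low clones with Nqo1: clone 30 had 0.755 and clone 42 had 0.778, against 1.000 in clone 11B, 1.037 in clone 1D and 1.222 in clone 20B. Its range, 0.69, was not called; 73.0% of measured genes had a smaller one. Gstt2, Gstm1, Gstm5, Gstt1 and Gsto1 ranged over 0.43 to 0.05 log2 units, and Gsta4, which clears lipid aldehydes, had only a probe set under the floor, at 0.780 to 0.785.

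Peroxiredoxins, which remove peroxide with thioredoxin, reached no range of 1 log2 unit in the 3 genes that could be followed. Over all measured genes 13.0% reached it, so 3 genes are too few to set the group apart. Prdx3, the mitochondrial peroxiredoxin, was highest in clone 1D at 1.437, with 1.241 in clone 20B, 1.000 in clone 42, 0.995 in clone 11B and 0.926 in clone 30. Prdx2 had 1.324 in clone 30 and 0.895 to 1.011 in the other clones. Prdx4, of the endoplasmic reticulum, was lowest in clone 1D on all 3 of its measured probe sets, at 0.786, 0.799 and 0.927, and its averaged range was 0.44.

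Srxn1, the sulfiredoxin that repairs overoxidized peroxiredoxins, had measured probe sets that parted. Probe set 1426875_s_at was lowest in clone 42, at 0.751 against 0.991 in clone 30, 1.000 in clone 11B, 1.141 in clone 20B and 1.170 in clone 1D, while probe set 1419942_at was at 1.275 in clone 30 and 0.983 to 0.995 elsewhere. The probe sets of Prdx1 were annotated to a second symbol as well and were not used, and Prdx5 and Prdx6 had none named in the annotation used here, so these 3 were not analysed.

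The thioredoxin system formed the flattest group, with a median range of 0.23 log2 units over 5 genes. Txn1, the cytosolic thioredoxin, had the widest averaged range, 0.44. Its probe set 1456734_at had 1.335 in clone 20B and 0.877 in clone 30. The other, 1416119_at, was highest in clone 11B at 1.059, beside 1.056 in clone 20B, and lowest in clone 42 at 0.850. Txnrd1, the selenoenzyme that reduces thioredoxin in the cytosol, ranged over 0.29, Txnrd2, its mitochondrial counterpart, over 0.23, and Txn2 over 0.11. Txnip, which binds and inhibits thioredoxin, ranged over 0.10, with ratios of clones 1D, 11B and 42 that recurred on 1212 other probe sets. On 1 or more probe sets of Txnrd1, Txnrd2, Txn2 and Txnip at least 3 clones had such shared ratios, so that their flatness does not measure equal transcript amounts.

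Of the superoxide dismutases, which turn superoxide into peroxide, the secreted Sod3 stood out. Probe set 1417634_at had a ratio of 2.162 in clone 20B, against 1.530 in clone 30, 1.000 in clone 11B, 0.962 in clone 42 and 0.735 in clone 1D. Clone 20B was highest, at 2.20-fold the median of the others (1.14 log2 units), and the range was 1.56. A probe set under the floor had its highest value in clone 30, at 0.735 against 0.554 in clone 20B, and with it averaged the deviation in clone 20B was 0.58.

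Sod2, the mitochondrial dismutase, had 1.460 in clone 42 on probe set 1417193_at, with 1.199 in clone 30, 1.000 in clone 1D, 0.886 in clone 20B and 0.744 in clone 11B. On 2 further probe sets a single clone lay above 1, clone 30 at 1.318 on 1448610_a_at and clone 42 at 1.231 on 1454976_at. Sod1, the cytosolic dismutase, was highest in clone 11B on probe sets 1435304_at and 1451124_at, at 1.416 and 1.172, but in clone 30 on 1459976_s_at, at 1.116 beside 1.000 in clone 11B. On 1435304_at the ratios of clones 20B, 30 and 42 recurred on 355 other probe sets, so the difference there is uncertain in size. Cat, the catalase, was highest in clone 11B on probe set 1416429_a_at, at 1.410, but in clone 1D on 1416430_at, at 1.166 beside 1.006 in clone 11B. Ratios of 3 clones recurred on 27 other probe sets for 1416429_a_at and on 13 for 1416430_at. The averaged ranges of Sod2, Sod1 and Cat were 0.48, 0.31 and 0.32.

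Groups that cut across these roles gave a similar picture. Of the 7 measured NRF2 target members (Nqo1, Hmox1, Gclc, Gclm, Gsr, Srxn1 and Txnrd1), in clone 30 4 had negative and 3 positive deviations, with a median deviation of -0.02. Those at least 0.5 log2 units below in clone 30 were 3 of the 7, Gclm, Nqo1 and Gsr, where 6.89% of all genes were. In clone 42, 5 of the 7 lay below, with a median of -0.15, and over all measured genes 47.4% did. All 5 selenoprotein members (Gpx1, Gpx3, Gpx4, Txnrd1 and Txnrd2) lay above the median of the other clones in clone 30 (median deviation 0.16). In clone 11B, 5 of 5 lay below that median (median deviation -0.12). Over all measured genes 42.4% lay above in clone 30 and 52.3% below in clone 11B. Clone 30 was the highest clone for Gpx4 and Txnrd2 only, and clone 11B the lowest for Txnrd2 only. For Gpx3 clone 11B deviated by -0.02 and could not be told apart from clones 1D and 42. Most of these deviations were within the probe set SD of 0.34.

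Other pathway genes, 86 symbols from a list that excluded the members and was also chosen with earlier results known, gave 55 measured genes. Among these 12 (21.8%) reached a range of 1 log2 unit, beside 13.0% of all genes, and their median range was 0.61. The widest was Aldh3a1, an aldehyde dehydrogenase, for which clone 30 had a ratio of 4.285 and clone 42 one of 0.0889, against 0.973 to 1.030 in the other clones. Clones 30 and 42, which were both low in Nqo1, thus lay at opposite ends for Aldh3a1.

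In clone 30, 5 of the 55 lay at least 1 log2 unit below the median of the others, where 1.69% of all genes did, and 2, Aldh3a1 and Nnt, lay as far above, where 1.25% did. The ratios of Me1, the NADP-dependent malic enzyme, were 0.510 for clone 30 and 0.684 for clone 42, against 1.000 in clone 11B, 1.712 in clone 1D and 1.998 in clone 20B. Ptgr1, a prostaglandin and alkenal reductase, had 0.421 in clone 30, against 0.983 to 1.387 in the other clones. Adh7, an alcohol dehydrogenase, had 0.460 there, against 0.634 in clone 11B and 1.000 to 1.371 in clones 20B, 42 and 1D. Cul3, the scaffold of the ligase that KEAP1 recruits, was low in clone 30 on both measured probe sets. Its ratios there were 0.441 and 0.435, against 0.810 to 1.743 in the other clones. On 1422794_at the ratios of clones 11B, 20B and 42 recurred on 10 other probe sets, so the difference there is uncertain in size. Probe set 1434718_at was flat, with 0.986 in clone 30, and 1450756_s_at, under the floor, was lowest there at 0.697. With every probe set averaged the range of Cul3 was 0.72. The fifth gene was Akr1b8, an aldo-keto reductase, with a deviation of -1.08.

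Cbr1, a carbonyl reductase, followed Nqo1 in being low in both clones, with ratios of 0.548 for clone 30 and 0.452 for clone 42, against 1.000 in clone 20B, 1.088 in clone 11B and 1.137 in clone 1D. Ggt7, of the gamma-glutamyltransferase family, showed 1.955 for clone 30 and 0.557 for clone 42, against 0.994 to 1.206 in the other clones. Gstm7, a mu-class transferase, had 1.771 in clone 30 and 0.687 in clone 42, while the ratios of clones 1D, 11B and 20B were shared with 1371 other probe sets. For Me1, Adh7 and Gstm7 the range dropped to 0.98, 0.79 and 0.69 with every probe set averaged.

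The listed genes of NADPH supply lay on the low side in clone 30, most by less than the call. There 5 of 5 measured genes lay under the median of the remaining clones, with a median deviation of -0.76, against 57.5% and -0.01 over all measured genes. Besides Me1 these included the pentose phosphate enzymes Tkt, at -0.83, and Taldo1, at -0.76. The measured probe sets of Tkt had 0.463 and 0.724 in clone 30, an SD of 0.46 log2 units. Pgd, also listed for NADPH supply, had only probe sets under the floor and was not counted. Idh2 and Idh1 lay at -0.14 and -0.15, and of the 5 genes 1, Me1, passed the call. For Idh1 the ratios of clones 1D, 11B and 20B recurred on 1371 other probe sets. Nnt, the mitochondrial transhydrogenase that also makes NADPH but stands in another group of the list, went the other way, with a ratio of 2.247 in clone 30 on its measured probe set, against 0.906 to 1.432 in the other clones. Its deviation in clone 30 was 1.19, and its other probe sets were flat. Tkt, Taldo1, Pgd, Idh2, Idh1, Nnt and Akr1b8 were named after their values were seen.

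**Figure D4:**
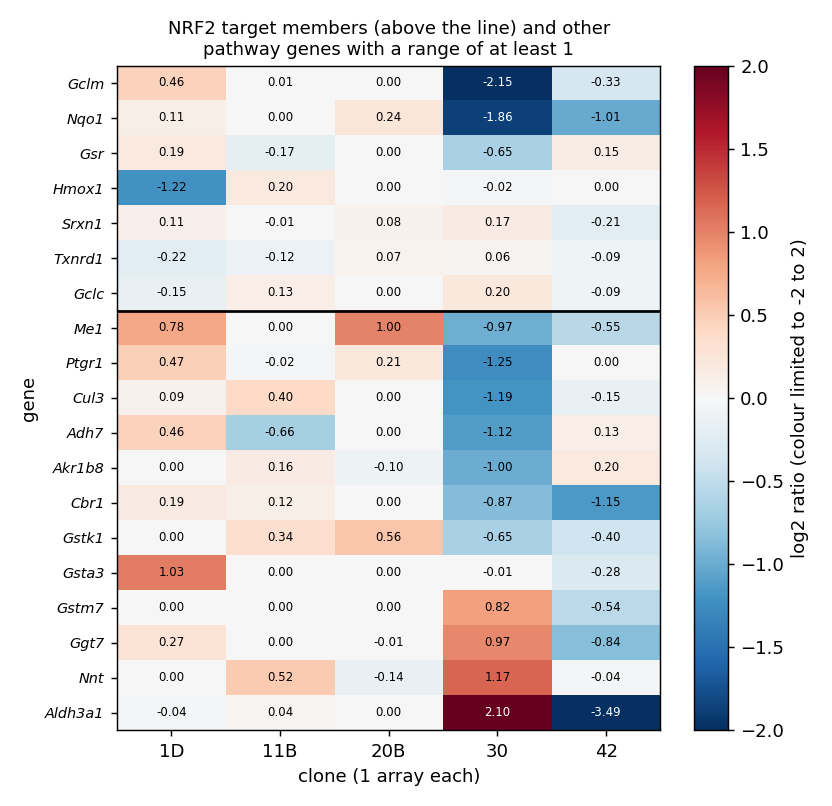
Log2 ratios in the 5 clones (columns) of the 7 measured NRF2 target members, above the black line, and of the 12 other pathway genes with a range of at least 1 log2 unit, below it, each block ordered by the deviation of clone 30. In the column of clone 30 the upper rows of both blocks are blue and the last 4 rows are red, and Aldh3a1 has 2.10 in clone 30 beside -3.49 in clone 42.

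Markers of other cell types moved in the same clones. In clone 30 the smooth muscle marker Tagln stood at 1.83 log2 units, against -0.19 to 0.60 in the other clones. The mesothelial marker Msln stood at 0.81 there, against -0.03 to 0.01. Upk3b, also mesothelial, stood at 0.44 there, against -0.82 to -0.73. For Upk3b only clone 30 lay above a ratio of 1. Where the median was not 1, a clone above 1 was a condition for counting as measured. Of the 4 mesothelial markers 2 were measured and 2 were at the floor or flat. Of the 4 smooth muscle markers 3 were measured, with Acta2 at 0.20 and Myh11 at 0.00 in clone 30. In clone 42 Col1a1 and Col3a1 stood at -2.13 and -6.33, against -0.23 to 0.33 in the other clones, while Pdgfra was at 0.70. Of 5 macrophage and 4 cardiomyocyte markers 2 and 3 were measured, within -0.23 to 0.47 in all clones. The part of these differences, and of the lower Actb 5' to 3' ratio in clone 30, in the values of Nqo1, Gclm, Gpx1 and Mgst1 was not tested.

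Pairs of clones were compared last, and few members separated any of the 10 pairs. Clones 1D and 30 differed by at least 1 log2 unit in 5 members, where 4.88% of all genes did: Nqo1 and Gclm were higher in clone 1D, and Hmox1, Gpx4 and Sod3 higher in clone 30. Where members lay apart in both directions, the share given counts genes apart in either direction. For the other pairs it counts only genes in the direction the members took, so the shares differ in kind. Clone 20B lay above clone 42 in 4 members (1.71% of all genes), Nqo1, Gpx1, Mgst1 and Sod3. Clone 11B lay above clone 42 in 3 (1.95%), Nqo1, Gpx1 and Mgst1. Clones 30 and 42, both low in Nqo1, differed in 2 (4.08%): Gpx1 was higher in clone 30 and Gclm higher in clone 42. Clones 1D and 42 differed in 3 (2.56%), Nqo1 and Gpx1 being higher in clone 1D and Hmox1 in clone 42. Clones 1D and 20B also differed in 3 (1.25%), Gpx8 being higher in clone 1D and Hmox1 and Sod3 in clone 20B. Clone 11B (2.35% of all genes) and clone 20B (2.56%) each lay above clone 30 in the same 2 members, Nqo1 and Gclm. Clone 11B lay above clone 1D in 2 (1.06%), Hmox1 and Mgst3, and clone 20B above clone 11B in 1, Sod3 (1.14%). For the members as a whole the median absolute difference was smallest between clones 30 and 42, at 0.13 log2 units beside 0.16 over all genes, and largest between clones 1D and 30, at 0.29 beside 0.15.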

How the data were processed

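Each of 5 clones was measured on 1 array. Per the submitters' processing notes, RMA and GCRMA were among the tools; their role is not given. The table the authors deposited holds a linear ratio for 45101 probe sets; its median over the arrays was exactly 1 for 18926 (42.0%) and below 1 for 26175, so the division by the own median or by a floor is read from the values and stated nowhere. Depth in reads does not apply, and precision is bounded by having 5 arrays. Gene symbols came from GEO's platform annotation (34958 with 1 symbol, 932 with several, 9211 unlisted); only those with 1 symbol were used. The log2 ratios of measured probe sets were averaged per gene, and clones were compared by range, by deviation from the median of the other 4 and by pairs. With no residual degree of freedom, no test was run. Ratios of 3 or more clones that recurred on at least 5 other probe sets are given as shared. Text names the 14 members of widest range, all called members, both regulators, Nqo1 and Hmox1, examples per role, and up to 8 other pathway genes of widest range. The members and lists were chosen with earlier results of these data known. Other averaging, scaling, filters and thresholds, and leaving out each clone, were tried. The calculations were tested on simulated ratios. Python 3.11.15, numpy 2.4.6 and pandas 2.3.3 were used.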

Additional observations from a re-analysis of the deposited data

How the results depend on the processing

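Results were recomputed with other averaging, filters, scalings and thresholds and with each clone left out. The median range of the members was 0.46 log2 units and lay between 0.39 and 0.63 in the 14 settings that gave it. Their count at 1 log2 unit was 9, became 16 at a threshold of 0.5 (41.5% of all genes) and 5 without clone 1D (10.6%), and stayed within 1.5 times of 9 in the other 13 settings. That of the other pathway genes was 12, and became 6 of 55 (10.9%) with every probe set averaged, where 7.22% of all genes passed, 6 without clone 30, where 8.18% did, and 32 at 0.5, where 41.5% did. At 0.5, members that far from the median of the other clones numbered 7 in clone 1D (7.94% of all genes) and 1 in clone 11B (9.17%). They numbered 4 in clone 20B (6.39%), 6 in clone 30 (13.1%) and 3 in clone 42 (10.3%). Those in clone 20B, 1 in the report, numbered 0 with every probe set averaged (0.307% of all genes) and 2 without clone 1D (1.26%) or without clone 11B (1.08%). Those in clone 11B, 0 in the report, became 1 without clone 1D (1.83%) or without clone 20B (2.36%). Those in clone 1D, 1 in the report, became 3 without clone 11B (1.37%), 2 without clone 20B (1.96%) and 2 without clone 42 (1.62%). Those in clone 42, 3 in the report, became 2 with every probe set averaged (1.12%), without clone 11B (1.90%) or without clone 20B (2.18%). They stayed at 3 in the other settings that gave them. No deviation of a called member changed sign. No paired analysis was possible because each clone has 1 array and the labels pair none. A floor hides low clones, and no level or detection call could be recovered.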
